A study of Arabidopsis thaliana with 3 samples.

Results

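The genes described here encode DNA-binding proteins that recognise the Telobox or related elements in Arabidopsis. They are the 5 TELOMERE REPEAT BINDING genes TRB1 (AT1G49950), TRB2 (AT5G67580), TRB3 (AT3G49850), TRB4 (AT1G17520) and TRB5 (AT1G72740), together with ARABIDOPSIS ZINC-FINGER 1 (AZF1, AT5G67450). These 6 genes, of 33056 annotated on chromosomes 1 to 5, were chosen by name and function, with earlier results of these data known. A gene was counted as carrying a UBP5 peak when a peak overlapped its body or the 1 kb before its transcription start site (TSS) by at least 1 bp.

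The data are peaks of UBP5-GFP, a GFP fusion of the histone H2A deubiquitinase UBP5. The fusion was expressed from the UBP5 promoter (UBP5pro::gUBP5-eGFP) in the ubp5 CRISPR deletion mutant, in the Col-0 background, and seedlings were harvested 12 days after germination. There were 2 IP replicates, each pulled down with an antibody against GFP, and 1 input. Every sample carried both the ubp5 deletion and the transgene, the same input served both replicates, and a pull-down from plants without GFP was not analysed here, so an enrichment is stated only relative to input. The replicates had 10266 and 10898 peaks on the nuclear chromosomes. The genome-wide level that the peak caller used as background was worth 43.96 fragments for replicate 1 and, at 3.83 times that, 168.3 fragments for replicate 2, so replicate 2 measured each peak with the smaller counting error.

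TRB proteins carry a Myb-type DNA-binding domain at the N-terminus and a histone H1-like domain in the middle. They bind telomeric repeats and also the Telobox, a short piece of that repeat found near the start of many genes, and TRB1, TRB2 and TRB3 bring Polycomb Repressive Complex 2 (PRC2), the H3K27 methyltransferase, to such sites. TRBs are also subunits of the PEAT complex, which takes its name from the PWO, EPCR, ARID and TRB families and with which UBP5 associates. AZF1 is a C2H2 zinc finger protein that has likewise been linked to PRC2 recruitment. Among the TRBs, TRB2 and TRB3 are close relatives of each other, and so are TRB4 and TRB5.

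UBP5-GFP peaks were found in both replicates at TRB1, TRB2, TRB3 and TRB4, at TRB5 in replicate 1 only, and at AZF1 in neither. Thus 4 of the 6 genes carried a peak in both replicates, against 31.0% of all annotated genes and 34.0% of the 27444 protein-coding genes. In the single replicates, 5 genes had a peak in replicate 1 and 4 in replicate 2, where 35.6% and 33.4% of all genes had one. With 6 genes this share is a description and no test was made on it. The summit that lay downstream of the TSS was found within the first 500 bp in each of the 5 TRB genes. This count leaves out the upstream summits of TRB2 and TRB4. By the summit nearest the TSS on either side, TRB4 in replicate 1 was at -300 bp. Among protein-coding genes with a peak in both replicates, 69.2% and 69.3% had the nearest summit within 0 to 500 bp. A share for downstream summits alone was not taken.

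**Figure D1:**
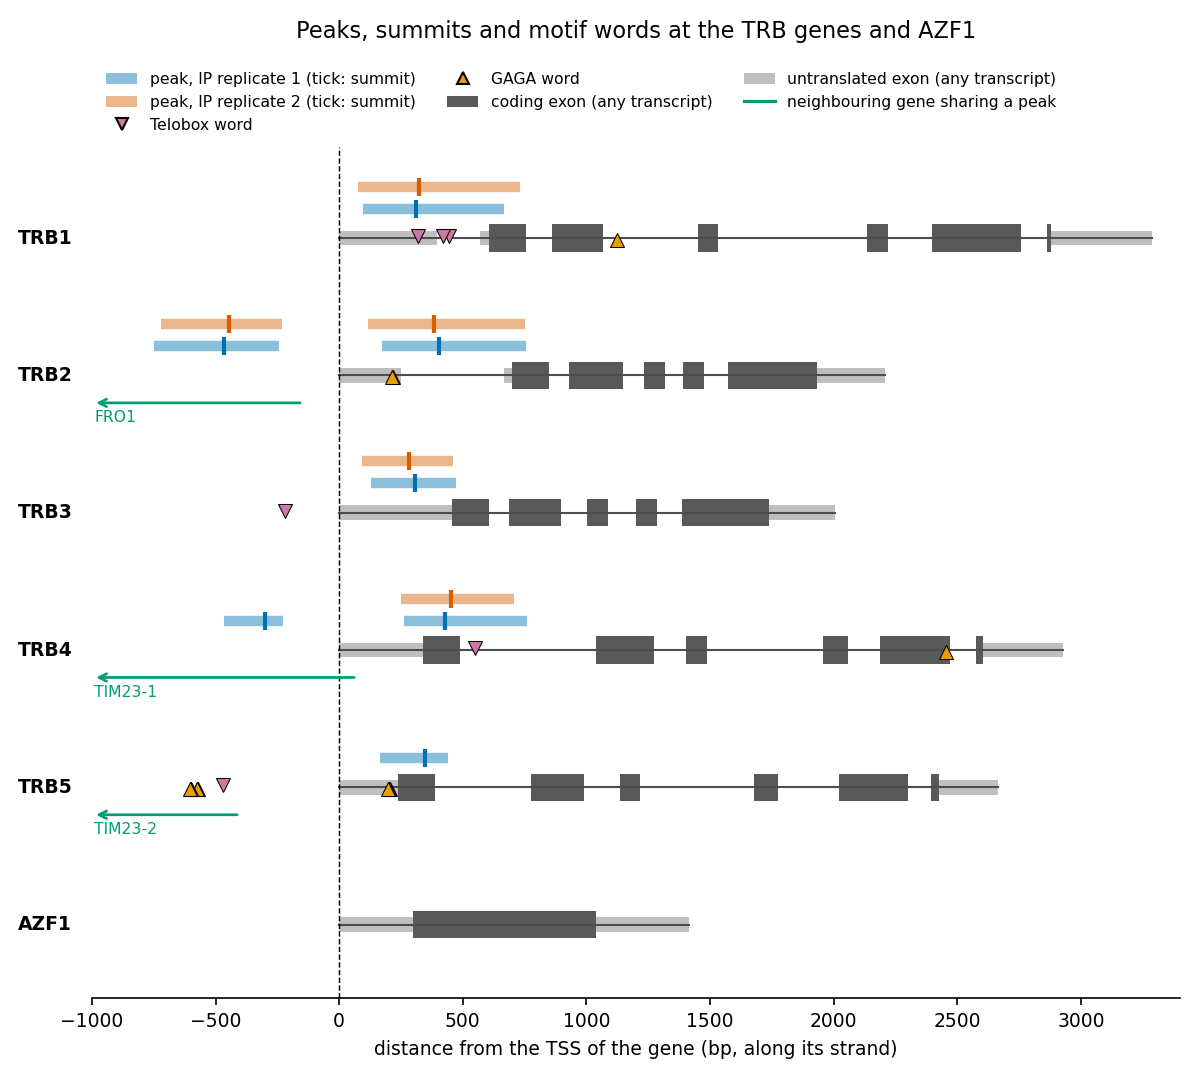
Peaks at the TRB genes and AZF1, each gene drawn along its strand from 1000 bp upstream of the TSS (x axis, bp from the TSS). Bars above each gene are the peaks of replicate 1 and replicate 2 with a tick at the summit, grey boxes are exons, triangles are Telobox and GAGA words, and green arrows are neighbouring genes that share a peak. The summits downstream of the TSS lie between 282 and 452 bp, and TRB1 is the gene with 3 Telobox words under its peak.

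TRB1, which binds telomeric repeats and Teloboxes of gene promoters, lies on the minus strand of chromosome 1 (chr1:18494029-18497318 in TAIR10) and is 3290 bp long. The fold enrichment at its peak was 3.47 (replicate 1) and 3.08 (replicate 2), that is 3.28 ± 0.27 (SD, n = 2). Fold enrichment is the IP pileup at the summit over the level that the caller used there. At every peak of the TRB genes that level was the genome-wide background and not a higher local input level. The 95% Poisson intervals of the TRB1 folds, which cover counting error only, were 2.95 to 4.06 and 2.83 to 3.36. The 2 intervals overlapped. By the highest peak, folds were higher in replicate 1 at 97.2% of protein-coding genes with a peak in both replicates. Overlap between replicates, here and below, is therefore a description and no measure of their agreement. The TRB1 folds were above those of 86.9% of the genes with a peak in replicate 1 and of 90.3% in replicate 2. The −log10 of the q-value was 35.9 in replicate 1 and 73.9 in replicate 2, a quantity that grows with depth.

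The TRB1 summits were 311 and 321 bp downstream of the TSS, 10 bp apart, and the whole peak of replicate 1 (574 bp) lay inside that of replicate 2 (654 bp). At this position 2 of the 3 annotated transcripts have their first intron, while the third has the 5′ UTR of a longer first exon. The start codon lay 294 and 284 bp further downstream. A Telobox word (AAACCCTA, which reads TAGGGTTT on the other strand) was 6 bp from the summit of replicate 1 and contained the summit of replicate 2. It occurred on the strand opposite to the gene. Another 2 Telobox words in the same orientation followed within the peak, at 418 and 442 bp from the TSS, in a stretch that is intron in all 3 transcripts. The words are printed in capitals and in the sense of the gene, the first at chr1:18496983-18497012 and the others at chr1:18496849-18496920. The first is shown for its place at the summits. The others were 107 and 131 bp from the summit of replicate 1 and 97 and 121 bp from that of replicate 2. Binding of the TRB1 protein to these words was not tested.
TRB1 summit: acggatttttcTAGGGTTTgagtttcggca
TRB1 intron: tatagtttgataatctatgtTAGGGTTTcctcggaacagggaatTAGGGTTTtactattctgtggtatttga

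Such a group of words was uncommon. Of the 27444 protein-coding genes, 62 (0.226%) had 3 or more Telobox words within the first 500 bp, and TRB1 was 1 of the 41 among them that carried a peak in both replicates. A Telobox word came as close as 6 bp to the summit at 1.69% of the peaks of replicate 1, and contained the summit at 0.771% of the peaks of replicate 2. These cut-offs, like that of 3 words, are the values of TRB1 itself, the closest of the 6 genes. The shares therefore describe TRB1 and are no test. For the gaps at TRB4 the shares were 19.1% (119 bp, replicate 1) and 14.0% (96 bp, replicate 2).

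TRB2, which shares the telomeric and Polycomb functions of TRB1, lies on the minus strand of chromosome 5 (chr5:26955568-26957774) and carried 2 separate peaks in each replicate. The peak in the gene had its summit 402 bp downstream of the TSS in replicate 1 and 383 bp downstream in replicate 2, with folds of 2.47 (95% interval 2.03 to 2.97) and 2.32 (2.10 to 2.57). Its mean fold was 2.4 ± 0.10 (SD, n = 2), and the intervals of the replicates overlapped. Both summits fell in the first intron of both annotated transcripts, 299 and 318 bp before the start codon.

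The other TRB2 peak lay upstream, with summits 465 and 446 bp before the TSS. Its fold was 3.49 (2.97 to 4.08) in replicate 1 and 2.31 (2.09 to 2.55) in replicate 2, so here the intervals did not overlap. This peak lay in the body of the divergent neighbour FRO1 (AT5G67590), which encodes a subunit of mitochondrial complex I. The TSS of FRO1 is 141 bp upstream of that of TRB2, and the summits were 324 and 305 bp downstream of it, inside the range seen for the TRB genes themselves. The 2 genes thus each had a summit within the first 500 bp of their own body. Because the higher of the 2 peaks was the upstream one in replicate 1 and the one in the gene in replicate 2, a value taken from the highest peak mixed the 2 (mean fold 2.91 ± 0.83, SD, n = 2), and the peak in the gene is the one compared between the TRB genes. Such an exchange of sides was seen at 3.01% of the protein-coding genes with a peak in both replicates.

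No Telobox word was found in the TRB2 body or the 1 kb upstream. The intron sequence around both summits (chr5:26957332-26957431, sense of the gene) is shown because it is the counterpart of the TRB1 stretch without the word. A run of GAGA words, the element bound by BASIC PENTACYSTEINE (BPC) factors, stood 211 to 220 bp from the TSS (chr5:26957544-26957573), in the first exon of one transcript and at the start of the first intron of the other, 182 and 163 bp from the summits. It reads TCTCTCTC in the sense of the gene and is in capitals.
TRB2 summits: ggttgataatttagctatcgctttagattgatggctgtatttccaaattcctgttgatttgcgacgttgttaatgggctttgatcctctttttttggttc
TRB2 GAGA run: catcatcaagTCTCTCTCTCgaaaactctc

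TRB3, the close relative of TRB2, lies on the plus strand of chromosome 3 (chr3:18488993-18490997). It had a single peak per replicate, with folds of 2.16 (1.75 to 2.63) in replicate 1 and 2.13 (1.92 to 2.36) in replicate 2, a mean of 2.14 ± 0.02 (SD, n = 2). The folds were nearly equal in the replicates, yet they ranked differently: 31.5% of genes with a peak had a lower fold in replicate 1 and 60.3% in replicate 2. The summits were 308 and 282 bp downstream of the TSS, 150 and 176 bp before the start codon, in the 5′ UTR of one transcript and the first intron of the other. The peaks were narrow, at 345 and 369 bp, where the median peak of a protein-coding gene was 475 and 485 bp wide. Its Telobox word lay outside the peak, at -221 to -214 bp from the TSS and 522 and 496 bp from the summits, in the same orientation as the gene (chr3:18488761-18488790). It is shown to set it beside the TRB1 word, which has the other orientation.
TRB3 upstream: tctattttcgaAAACCCTAaatttattata

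TRB4 and TRB5, the closely related pair, are both on the minus strand of chromosome 1 (chr1:6024636-6027565 and chr1:27380260-27382924), and each faces a gene for the mitochondrial import channel protein TIM23 in a divergent arrangement. TIM23-1 (AT1G17530) starts 78 bp inside TRB4, so that it overlaps the first exon of the 2 TRB4 transcripts that begin at the gene's TSS and not that of the other 2, which begin at 180 bp, and TIM23-2 (AT1G72750) starts 396 bp upstream of TRB5. TRB4 had a peak in the gene with a fold of 2.60 (2.15 to 3.12) in replicate 1 and 1.97 (1.76 to 2.19) in replicate 2, a mean of 2.28 ± 0.45 (SD, n = 2). The intervals overlapped by a small margin. The summits were 429 and 452 bp downstream of the TSS and, unlike those of TRB1, TRB2 and TRB3, lay past the start codon, 88 and 111 bp into the coding part of exon 1. In replicate 1 a weak peak, of fold 1.78 (1.41 to 2.21), also lay 300 bp upstream of the TRB4 TSS, within TIM23-1 and 378 bp downstream of its TSS. It was not called in replicate 2.

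The single Telobox word of TRB4 was in its first intron, 119 and 96 bp from the summits measured to the nearer end of the word and in the same orientation as the gene. The run from the summits through the end of exon 1 to this word (chr1:6027000-6027145) is shown because the summit and the word fall in different parts of the gene.
TRB4 summits to Telobox: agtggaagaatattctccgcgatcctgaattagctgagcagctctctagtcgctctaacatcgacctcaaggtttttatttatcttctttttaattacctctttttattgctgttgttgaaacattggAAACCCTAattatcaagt

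TRB5 had a peak in replicate 1 only. Its fold was 1.82 (1.45 to 2.26), with 81 fragments at the summit and a −log10 q of 5.09, and 7.28% of the genes with a peak in that replicate had a lower fold. The summit was 347 bp downstream of the TSS and 110 bp past the start codon, in coding exon 1, as at TRB4. In replicate 2 no peak was called, where the lowest fold called at the background level was 1.32, and the nearest one lay 12049 bp beyond the gene's window. Among protein-coding genes with a peak in replicate 1, 12.5% had none in replicate 2, with a median fold of 1.89 (quartiles 1.78 and 2.04), and 32.3% of them had a lower fold than TRB5. TRB5 is also the gene with the most GAGA words, 10 overlapping or spaced matches in its window, of which 4 formed 1 run in the 5′ UTR (chr1:27382707-27382736) between 138 and 144 bp from the summit. Its Telobox word was 813 bp from the summit, upstream and inside TIM23-2. Both sites are shown, the second at chr1:27383379-27383408, since they are the elements nearest to a peak that was seen once.
TRB5 GAGA run: ttgtcttgGAGAGAGAGAGAGAgcacgagg
TRB5 upstream: aaatctatgttTAGGGTTTttagggaaaga

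AZF1, a gene with a single exon on the minus strand of chromosome 5 (chr5:26918765-26920179), had no peak in its 1415 bp body or 1 kb upstream in either replicate. A fold under 1.53 in replicate 1 and 1.32 in replicate 2 was not called at the background level, so weaker binding was not detectable at this depth. The nearest peaks had folds of 3.31 and 2.28 and lay in the upstream gene AT5G67460, with summits 2201 and 2163 bp from the AZF1 TSS. Their near edges were 876 and 857 bp outside the window. Neither a Telobox nor a GAGA word was found in the AZF1 window. No peak in either replicate was the state of 58.6% of protein-coding genes.

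The plot of fold by gene sets the replicates side by side. In replicate 2, the deeper one, the peak in the TRB1 gene (interval 2.83 to 3.36) stood above those in TRB2 (2.10 to 2.57), TRB3 (1.92 to 2.36) and TRB4 (1.76 to 2.19) without overlap, whereas each of these 3 overlapped the next. In replicate 1 the interval of TRB1 (2.95 to 4.06) overlapped those of TRB2 (2.03 to 2.97) and TRB4 (2.15 to 3.12) and lay above that of TRB3 (1.75 to 2.63). These intervals cover counting error only and leave out the spread between replicates. By them TRB1 was set apart from all 3 others in replicate 2 only, and the order below it was not resolved. By the highest peak in the window, TRB2 (3.49) and TRB1 (3.47) were nearly equal in replicate 1. The genes with a peak in both replicates had median folds of 2.54 in replicate 1 and 2.02 in replicate 2, with upper quartiles of 3.07 and 2.47. These are medians and quartiles of the highest peak in a gene's window. By the peak in the gene, TRB1 was above the upper quartile in both replicates, TRB2 and TRB4 were between the quartiles, and TRB3 was below the lower quartile of 2.18 in replicate 1 and above the median in replicate 2.

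**Figure D2:**
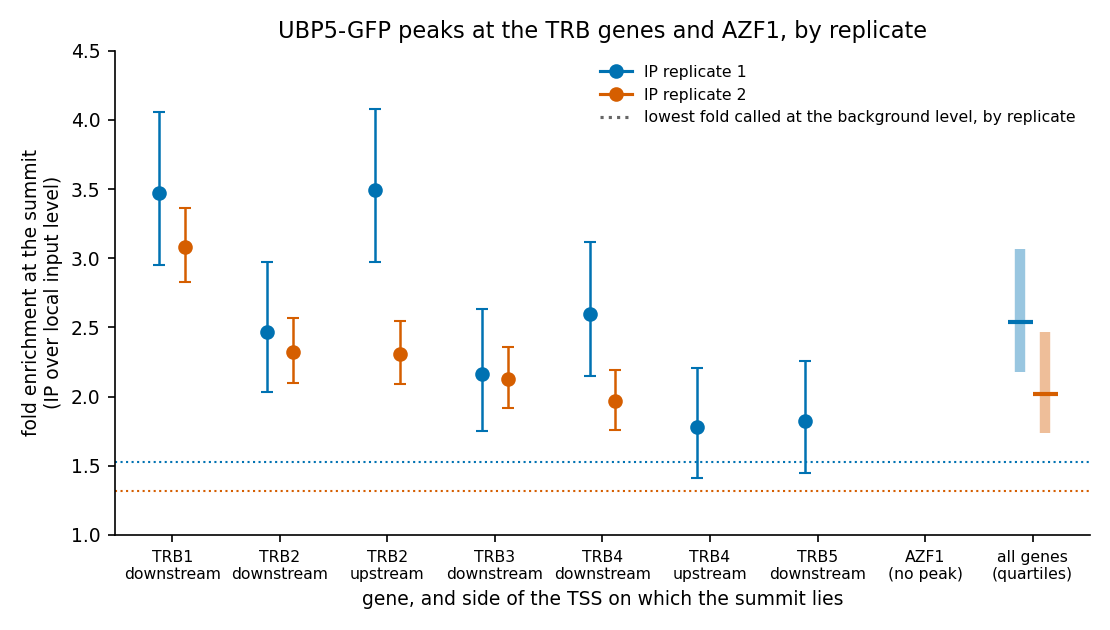
Fold enrichment at the summit (y axis) of every peak at the TRB genes, split by the side of the TSS (x axis), in IP replicate 1 and IP replicate 2. The axis label reads IP over local input level, and at each of these peaks that level was the genome-wide background. Bars are 95% Poisson intervals of the summit count, the shaded bars at the right are the quartiles and median of all genes with a peak in both replicates, and dotted lines are the lowest fold called at the background level, 1.53 and 1.32. TRB1 is the highest downstream peak in both replicates, and AZF1 has none.

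By the highest peak in the window, folds were higher in replicate 1 than in replicate 2 at 97.2% of protein-coding genes with a peak in both. The median ratio was 1.24. The ratio at the peak in the gene was 1.12 for TRB1, 1.06 for TRB2, 1.01 for TRB3 and 1.32 for TRB4. At TRB1, TRB3 and TRB4 this was also the highest peak. By the highest peak the ratio of TRB2 was 1.5, above that of 96.0% of these genes. It set the upstream peak of replicate 1 against the peak in the gene of replicate 2. The mixing changed little, because in replicate 2 the upstream peak (2.31) nearly equalled the peak in the gene (2.32). The upstream peak by itself differed as much between the replicates, at 3.49 and 2.31. The ratio of TRB3 was lower than the 5th percentile of 1.04 over these genes, and the ratio of TRB4 was below the upper quartile of 1.34. At every one of these peaks the local level was the genome-wide background, so the folds of these genes differed through the IP pileup alone.

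The gap between the 2 replicates' summits in the gene was 10 bp at TRB1, 19 bp at TRB2, 26 bp at TRB3 and 23 bp at TRB4. Over all protein-coding genes with a peak in both replicates, the summit nearest the TSS had its quartiles at 197 and 408 bp downstream in replicate 1 and at 206 and 401 bp in replicate 2, and 69.2% and 69.3% of genes had it within 0 to 500 bp. TRB1, TRB2 and TRB3 were within these quartiles in both replicates, and TRB5 was in replicate 1. The nearest summit of TRB4 was the one 300 bp upstream in replicate 1, outside the quartiles, and the one 452 bp downstream in replicate 2, past the upper quartile. The start codon lay downstream of the summits in the gene at TRB1, TRB2 and TRB3, whose 5′ UTR and first intron put it 605, 701 and 458 bp from the TSS, and upstream of them at TRB4 and TRB5, where it was 341 and 237 bp from the TSS.

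**Figure D3:**
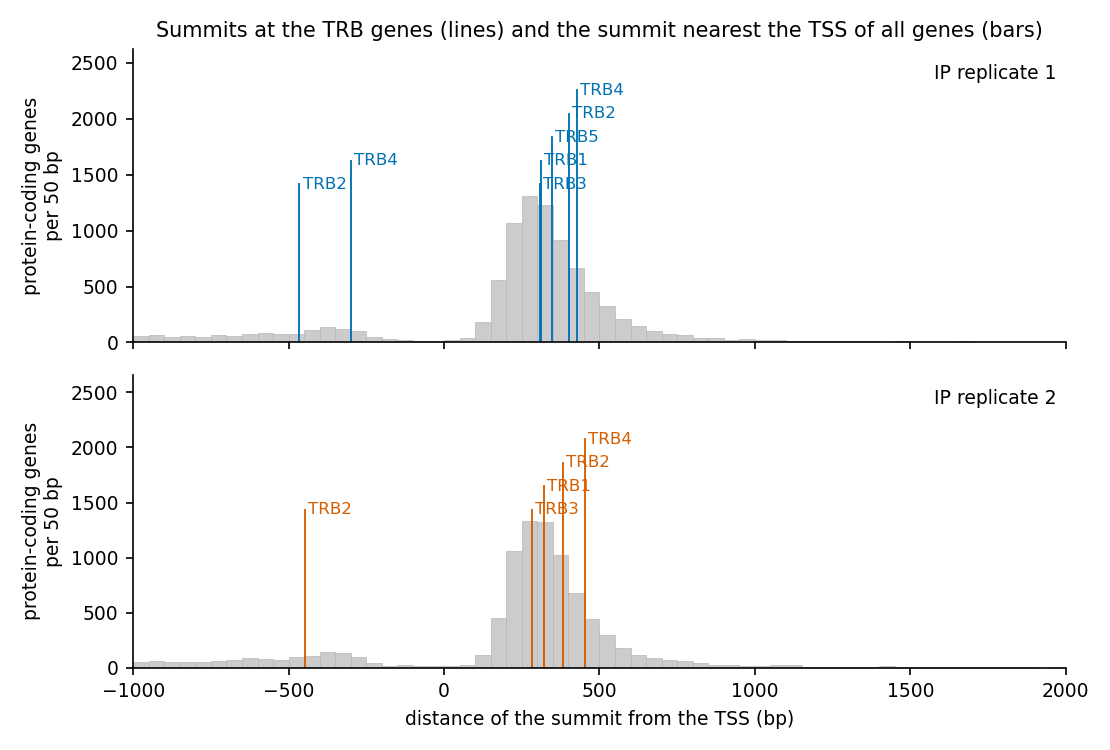
Distance of UBP5-GFP summits from the TSS (x axis, bp) in IP replicate 1 (top) and IP replicate 2 (bottom). Lines are the summits at the TRB genes, and grey bars count the protein-coding genes with a peak in both replicates by the summit nearest their TSS, in bins of 50 bp over the range shown. The downstream summits of the TRB genes fall between 282 and 452 bp, on the main mode of all genes, and those of TRB2 and TRB4 at 300 to 465 bp upstream fall on the small mode to its left.

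A Telobox word lay wholly within 100 bp of a summit at 1 of the 6 genes, TRB1. Counted by summit and not by gene, 14.7% of all summits in replicate 1 and 13.7% in replicate 2 had a word so placed. The TRB4 word began 96 bp from the summit of replicate 2 but did not lie wholly within 100 bp. Within the body and 1 kb upstream, 4 of the 6 genes (TRB1, TRB3, TRB4 and TRB5) held the word, against 36.5% of protein-coding genes, 49.8% of those with a peak in both replicates and 29.7% of the others. TRB2 had a peak in both replicates without the word, and TRB5 had the word without a peak in replicate 2. A GAGA word (GAGAGAGA on either strand) was present in the windows of TRB1, TRB2, TRB4 and TRB5, against 46.4% of protein-coding genes, and was within 100 bp of no summit at these genes, where 6.69% and 5.77% of all summits had one. These matches describe letters in the reference and do not show that a factor was bound.

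The genes of proteins that act with the TRBs were examined by the highest peak in the window. In the PEAT complex, without the TRB genes, 6 of 11 genes had a peak in both replicates. Their median folds were 3.06 in replicate 1 and 2.75 in replicate 2. This count and these medians include UBP5. EPCR1, an Enhancer of Polycomb homologue, was highest at 4.35 ± 0.64 (SD, n = 2) and HAM2, a histone acetyltransferase, lowest at 1.92 ± 0.49. PWO1, PWO2, PWO3 and ARID3 had no peak, and ARID4 had one in replicate 1 only. At UBP5 itself, of which the line carries a tagged copy, the local level was 5.77 and 5.47 times the background, so its folds of 3.17 and 2.78 are over a raised level. Among 12 other genes for Myb proteins of the telomere-repeat-binding type, 7 had a peak in both replicates. TRFL5 had the highest fold, 5.94 ± 0.54, from a peak with its summit beyond the window at -1342 and -1355 bp, and TRP1 the lowest, 1.64 ± 0.16. TRFL2 had a peak in replicate 1 only, and TRFL1, TRFL3, TRFL4 and TRFL8 had none.

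None of the 9 C2H2 zinc finger genes related to AZF1 had a peak in either replicate, as was found for AZF1. Of the 7 BPC genes, 5 had a peak in both replicates, BPC1 had one in replicate 1 only and BPC7 had none. The highest peak of BPC2 had its summit beyond the window, at -1207 and -1272 bp from the TSS. BPC6 was highest at 3.67 ± 0.16 and BPC3 lowest at 2.44 ± 0.36. The PRC2 core list had peaks at 6 of 8 genes in both replicates, with medians of 2.28 and 1.84. There, EMF2 was highest at 2.37 ± 0.43 and MSI1 lowest at 1.98 ± 0.37, and MEA and FIS2 had none. The EMF2 value came from a peak with its summits upstream, at -605 and -560 bp from the TSS. At VRN2 the highest peak had its summit at 300 bp in replicate 1 and at -888 bp in replicate 2. The genes of 3 proteins that bind TRBs all had a peak in both replicates: the telomerase gene TERT at 1.99 ± 0.49, POT1b at 1.87 ± 0.25 and the histone demethylase gene JMJ14 at 2.33 ± 0.32. The TRB genes with a peak in both replicates (n = 4) had medians of 3.04 in replicate 1 and 2.23 in replicate 2 by the highest peak in the window, and of 2.54 and 2.23 by the peak in the gene, which leaves out the FRO1 peak. The median over all genes with a peak in both was 2.54 and 2.02. All of these shares stand beside the 34.0% of protein-coding genes, and no list was tested against it.

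**Figure D4:**
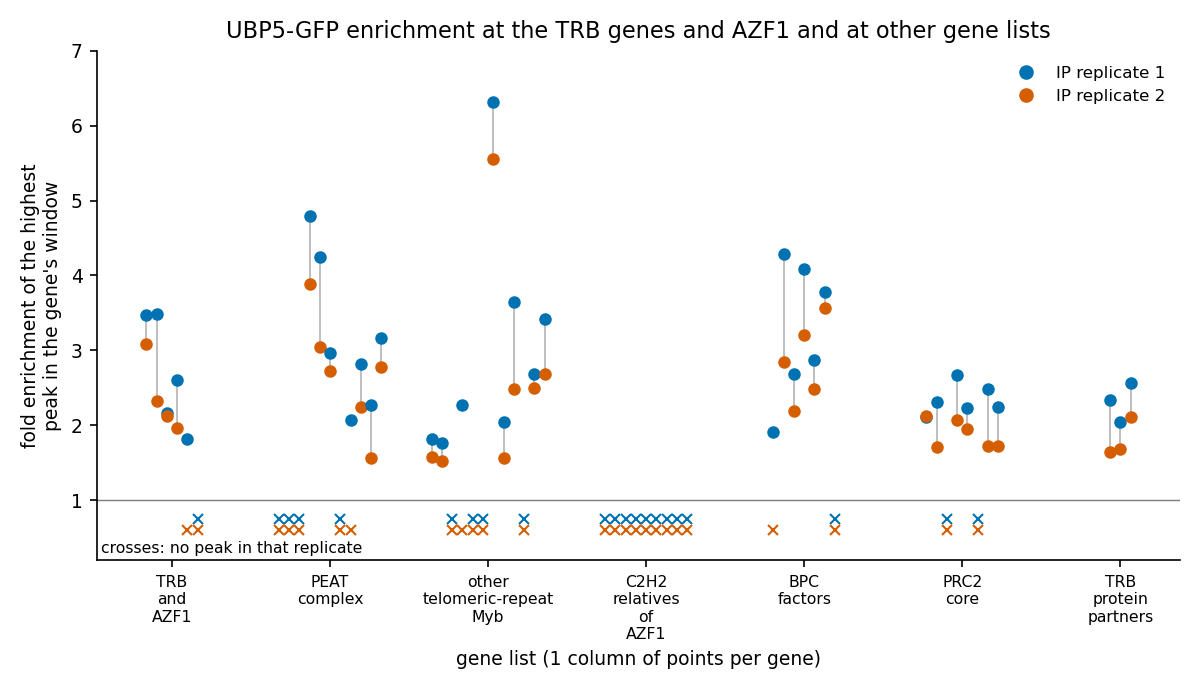
Fold enrichment of the highest peak in each gene's window (y axis) for the TRB genes and AZF1 and for the other gene lists (x axis, 1 column of points per gene), in IP replicate 1 and IP replicate 2. Grey lines join the replicates of a gene and crosses below the line at 1 mark a replicate without a peak. All 9 C2H2 relatives of AZF1 are crosses in both replicates, and TRFL5 reaches 6.32 and 5.55.

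The genes most like TRB1 were sought among the 9337 protein-coding genes with a peak in both replicates, by the summed differences in log2 fold and in summit distance (kb) over the 2 replicates. The nearest were AT3G56300, AT3G50550 and AT1G53645, with sums of 0.074, 0.079 and 0.080. AT3G56300 had folds of 3.58 and 3.07 and summits 294 and 315 bp downstream of the TSS. The likeness rests on 4 values per gene and says nothing of shared control.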

How the data were processed

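UBP5-GFP ChIP was measured in 2 IP replicates against 1 input, grouped by the sample labels. The authors cleaned the reads (SOAPnuke), mapped them on TAIR10 (Bowtie2 2.4.5), retained uniquely mapped ones and called peaks with MACS3 3.0.0 for each replicate at a q-value of 0.01. The study's methods state removal of duplicates with Picard for its histone-mark libraries and do not mention it for UBP5-GFP. Picard is among the tools in the submitters' processing notes. The deposited lists give fold enrichment (a ratio), −log10 p and −log10 q at the summit, and a score that was not used.

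Genes and sequence came from RefSeq TAIR10.1. The 4843 pseudogenes were left out. All nuclear peaks ended within its chromosome lengths. Of 56 listed genes, 12 (TRB4 and TRB5 among them) do not have the listed name in that annotation and were matched by locus. The members and lists were chosen with earlier results of these data known.

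A gene's value was the highest fold in its window. The named genes were the 6 genes, neighbours sharing a peak, the highest and lowest mean fold of each list (all genes of lists of 3 or fewer) and the 3 genes most like TRB1. UBP5, VRN2, BPC2 and listed genes without a peak in 1 or both replicates were named after their values were seen. The summit count was worked out from fold and −log10 p, taking the p-value as a Poisson tail. The background level found in this way held for 87.4% and 84.1% of the peaks. Poisson intervals are at 95%. The calculations, made with Python 3.11.15, numpy 2.4.6, pandas 2.3.3 and scipy 1.17.1, were tested on simulated data. No comparison was tested, and the alternatives tried covered thresholds, windows, the choice of peak and each replicate left out.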

Additional observations from a re-analysis of the deposited data

How the results depend on the processing

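The count of 4 genes with a peak in both replicates was 2 (TRB1 and TRB2) at a q-value under 1e-20. It was 3 (TRB1, TRB2 and TRB3) at a fold of at least 2, and 1 (TRB1) at a fold of at least 3. With 2 kb upstream it was 5, as the peak near AZF1 then counted. It ranged from 4 to 5 with 1 replicate left out, TRB5 being the addition. The count of 1 gene with a Telobox word near a summit was 2 (TRB1 and TRB4) within 250 bp and 0 for the 9-letter word AAACCCTAA, and stayed at 1 with either replicate left out. With each replicate left out the mean folds ranged from 3.08 to 3.47 (TRB1), 2.32 to 3.49 (TRB2), 2.13 to 2.16 (TRB3) and 1.97 to 2.6 (TRB4). The mean summit distance of TRB2 by the highest peak was -41.0 bp. It was -465 and 383 bp with replicates left out, and 392.5 bp for the summit nearest the TSS, an alternative chosen after seeing the data, by which TRB4 was at 76.0 bp, against 440.5 bp by the highest peak. From the TSS of the transcript nearest the summit, the distance was 185 bp for TRB1, against 316 bp from the gene's TSS, 254 bp for TRB3, against 295 bp, and 260.5 bp for TRB4. Leaving out the means with a replicate left out, which with n = 2 cannot move by 1 SD, 28 of 39 values stayed within 1.5 times (counts) or 1 SD. With 2 replicates an SD is uncertain, and folds below 1.53 and 1.32 could not be called at the background level. No paired analysis was possible because the replicates form 1 group against a single input.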
